A study of Mus musculus with 14 samples.

Results

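The genes En1, En2, Ptn, Sox1, Pax6, Nes, Sox11, Irx3 and Hes5 were followed across embryonic stem cells (ESCs) of 2 genotypes in 2 media. These 9 genes were picked by symbol out of 41204 genes in the RNA-seq table, and all 9 had a mean above 0.2 FPKM (fragments per kilobase of transcript, scaled to the mapped fragments of the library), as had 15430 genes in total. En1 and Ptn were brought forward because they were far higher in Trincr1-ko than in wild-type ESCs in PD + LIF, and the other 7 because of their place in the neural lineage. The group as a whole was put together with the genotype contrast in PD + LIF known, so that contrast is given for all 9 genes as a description, without a test.

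The study asked what the long noncoding RNA Trincr1 does in mouse ESCs. Poly(A) RNA was sequenced from wild-type (WT) and Trincr1-ko (Trincr1-/-) ESCs from a cross of C57BL/6(F) x 129/sv(M), labelled with a developmental stage of 3.5 days, in 4 groups with 2 samples per group. In 2i + LIF, called 2iL in the labels, cells grew on gelatin in N2B27 with 1 μM of the MEK inhibitor PD0325901, 3 μM of the GSK3 inhibitor CHIR99021 and 1000 units/ml of leukemia inhibitory factor. In PD + LIF, called PDL, cells spent 24 h in 2i + LIF and then 4 days in the same medium without CHIR99021, so MEK was inhibited in all 4 groups. No matching time in culture is given for the 2i + LIF samples, so medium and time in culture cannot be told apart. The knockout was made with a pair of guide RNAs that flank exons 2 to 4 of Trincr1. The labels do not state whether 1 or several knockout clones were sequenced, and nothing says that samples of a group came from separate cultures, so p-values measure the spread between these samples only.

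The transcription factors Sox1 and Pax6 mark early neuroectoderm and neural progenitors. Nes encodes nestin, an intermediate filament of neural progenitors, Sox11 is a transcription factor that acts in neurogenesis, Irx3 is an Iroquois homeobox factor of the early neural plate, and Hes5 is a repressor that Notch signaling switches on. En1 and En2 are the engrailed homeobox genes of the midbrain-hindbrain boundary, where Wnt1 maintains En1 in the embryo. Ptn encodes pleiotrophin, a secreted heparin-binding growth factor whose receptors include Ptprz1, Alk and syndecans. ESCs that leave naive pluripotency in serum-free N2B27 readily enter the neural lineage, and inhibition of GSK3 activates the Wnt and β-catenin pathway.

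RefSeq promoter windows of GRCm38.p6, the 250 bases before the annotated start, were found for 8 of the 9 genes, all but En2. They were searched on both strands for the TCF/LEF core CTTTGA, the SOX core ATTGTT, the RBPJ core TGGGAA and the E-box CACGTG, the last of which was added after its letters had been seen. Capitals mark the matches below, of which none overlaps another. En1 and Ptn are shown because they led the difference between genotypes, Irx3 because it had the highest ratio between the media, and Hes5 as the Notch target of the group.

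En1, chr1:120602237-120602486, plus strand: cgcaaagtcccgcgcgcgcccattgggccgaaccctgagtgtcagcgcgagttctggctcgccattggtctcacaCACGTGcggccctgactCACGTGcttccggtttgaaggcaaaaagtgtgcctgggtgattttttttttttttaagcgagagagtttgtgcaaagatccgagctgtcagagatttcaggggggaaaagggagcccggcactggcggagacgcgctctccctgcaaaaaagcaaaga

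Ptn, chr6:36810180-36810429, minus strand: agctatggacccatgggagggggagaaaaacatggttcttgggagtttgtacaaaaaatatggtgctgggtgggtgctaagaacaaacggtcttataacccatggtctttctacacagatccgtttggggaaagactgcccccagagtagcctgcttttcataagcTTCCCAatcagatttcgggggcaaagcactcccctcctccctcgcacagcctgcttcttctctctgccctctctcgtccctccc

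Irx3, chr8:91801655-91801904, minus strand: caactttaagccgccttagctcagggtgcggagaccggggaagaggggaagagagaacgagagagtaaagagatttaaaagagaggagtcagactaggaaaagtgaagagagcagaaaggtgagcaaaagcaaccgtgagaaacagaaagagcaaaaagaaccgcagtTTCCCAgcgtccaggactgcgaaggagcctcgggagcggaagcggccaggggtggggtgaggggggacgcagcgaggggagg

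Hes5, chr4:154960673-154960922, plus strand: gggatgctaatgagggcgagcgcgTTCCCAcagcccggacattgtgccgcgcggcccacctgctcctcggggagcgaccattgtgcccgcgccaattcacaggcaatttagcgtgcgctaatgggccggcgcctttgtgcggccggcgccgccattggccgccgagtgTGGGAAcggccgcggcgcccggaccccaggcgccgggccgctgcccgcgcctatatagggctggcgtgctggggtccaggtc

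The window of En1 held 2 E-boxes, which begin 175 and 158 bases before the start. The RBPJ core lay in reverse, as TTCCCA, 84 bases before the start of Ptn and 82 bases before that of Irx3. In Hes5 it lay at 226 bases in reverse and at 82 bases in the sense direction. Among 32851 promoter windows, 6.02% held the E-box, 21.6% the RBPJ core, 13.8% the TCF/LEF core and 9.42% the SOX core. The windows of Sox1, Pax6, Nes and Sox11 held none of these letters, and no window of the 8 genes held the TCF/LEF or the SOX core. The RefSeq gene and the deposited locus differ by up to 1182 bases at an end for Ptn and by up to 262 bases for Irx3. Both windows lie inside the deposited locus of their gene, so they may not be those of the start used in these cells.

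FPKM sums ranged from 497115 to 519651 per library, and the estimated depth from 10.3 to 14.0 M fragments. Trincr1, listed as Gm2694, had 5.70 to 9.45 FPKM in wild-type ESCs and at most 0.0754 FPKM in Trincr1-ko ESCs in 2i + LIF, and 6.18 to 6.56 FPKM against 0.746 to 1.38 FPKM in PD + LIF. All 9 markers of ESCs and naive pluripotency had means above 1 FPKM in each group. Their summed level was 1908 to 1963 FPKM in 2i + LIF. In PD + LIF it was lower, 1256 to 1286 FPKM in wild-type and 1013 to 1047 FPKM in Trincr1-ko ESCs. Pou5f1 had the highest mean of the 9 in every group. In wild-type ESCs the means of Klf2 (109 to 132 FPKM) and Sox2 (146 to 179 FPKM) rose between the media, while those of the other markers fell. The Klf4 mean in PD + LIF was 29.4 FPKM for wild-type and 34.3 FPKM for Trincr1-ko ESCs, and the samples overlapped. The summed level of 6 markers of formative and primed epiblast was 54.7 to 62.1 FPKM in 2i + LIF, 145 to 165 FPKM in wild-type and 221 to 242 FPKM in Trincr1-ko ESCs in PD + LIF. Markers of endoderm summed to at most 4.72 FPKM, those of mesoderm to at most 6.57 FPKM and the 6 of fibroblasts to at most 1.16 FPKM in 2i + LIF, and in PD + LIF to 3.68 to 4.46 FPKM for wild-type and 5.21 to 6.23 FPKM for Trincr1-ko ESCs. Thy1 was the highest of the 6 in PD + LIF, with a mean of 3.38 FPKM for wild-type and 3.05 FPKM for Trincr1-ko ESCs, and the Col1a1 means there were 0.409 and 1.89 FPKM in the same order, while Col1a2, Col3a1, Dcn and Lum had means of at most 0.512 FPKM in every group. The 5 trophoblast markers summed to 13.7 to 20.9 FPKM in 2i + LIF and 39.9 to 52.4 FPKM in PD + LIF, mostly Tfap2c, and the Hand1 mean in PD + LIF was 0.473 FPKM for wild-type and 2.87 FPKM for Trincr1-ko ESCs. The part of these shifts in the levels below was not tested. In bulk RNA, fewer cells that express a gene and less RNA per cell cannot be told apart.

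Most of the neural genes were low in 2i + LIF and higher in PD + LIF in wild-type ESCs. Of the 7 genes other than En1 and Ptn, Sox1, Pax6, Nes, Sox11 and Irx3 rose, En2 fell, and Hes5 did not pass the test (limma on log2(FPKM + 1), Benjamini-Hochberg adjusted p under 0.05). That count of 6 in 7 stands beside 52.2% of all genes tested, of which 30.9% rose and 21.3% fell. The tests of these 7 genes use PD + LIF samples of the genotype contrast that was known when the group was put together. Their p-values are therefore a limited guide. Over all genes the median log2 difference was 0.08 in wild-type and 0.07 in Trincr1-ko ESCs, and quantile normalization lowered it by 0.0992 and 0.106, which turned the split of calls in wild-type ESCs from 4765 higher and 3283 lower to 3803 and 3946, and in Trincr1-ko ESCs from 4572 and 3136 to 3578 and 3838. The directions and calls of these 6 genes were the same under that normalization.

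**Figure D1:**
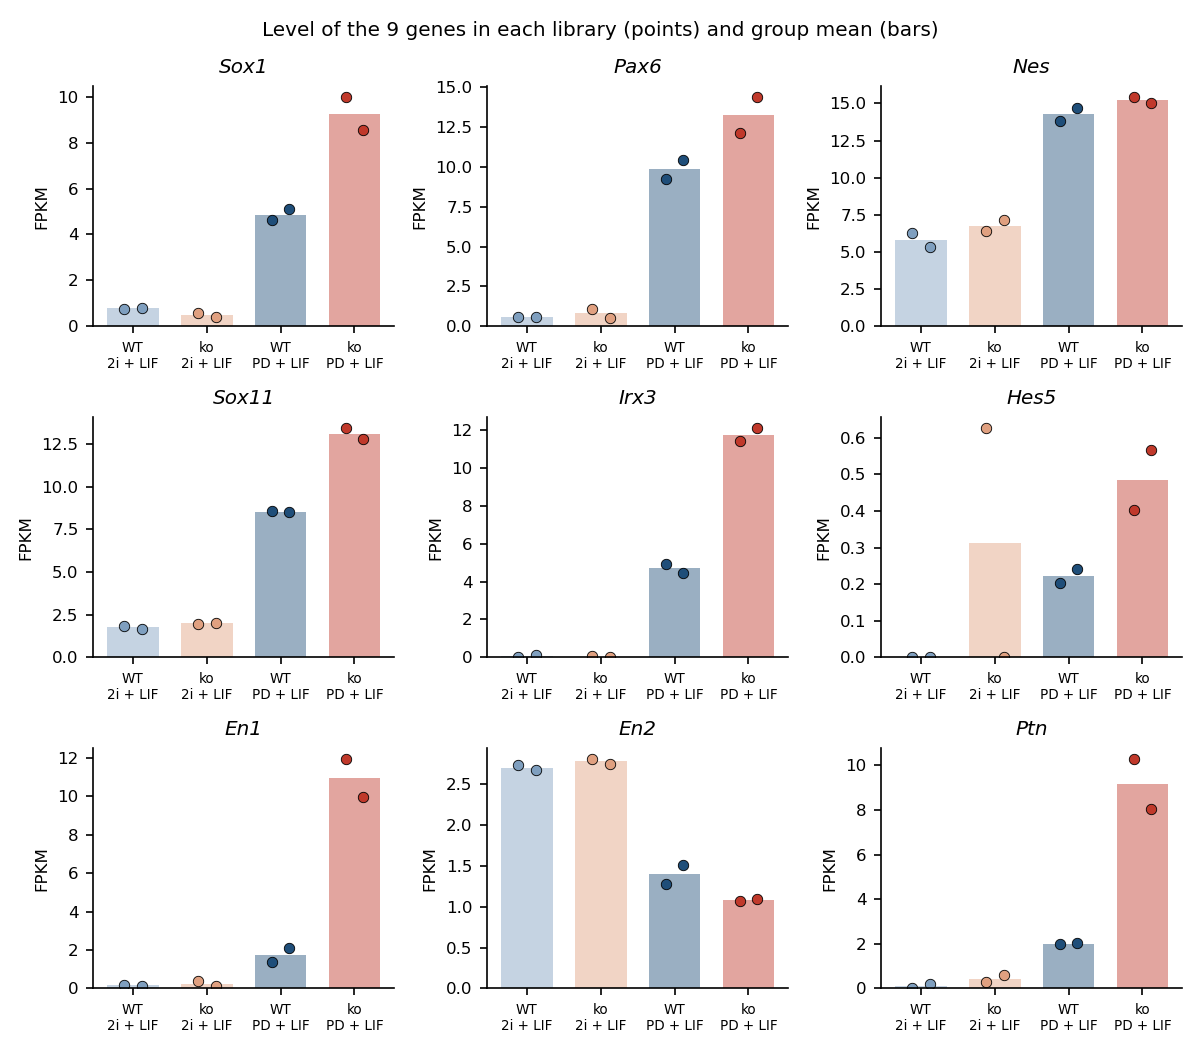
FPKM of the 9 genes (y axis, a separate scale in each panel, from 0) in the 4 groups of genotype and medium, with each of the 2 samples as a point and the group mean as a bar. Nes was above 5 FPKM in every library, En2 was highest in 2i + LIF, and En1 and Ptn were above 8 FPKM in Trincr1-ko ESCs in PD + LIF alone.

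Pax6 was 0.558 and 0.570 FPKM in wild-type ESCs in 2i + LIF and 9.25 and 10.4 FPKM in PD + LIF. The groups lay far apart, 17.5-fold by their means, and the log2 difference was 2.79 (SE 0.17, limma adjusted p = 2.2e-05). In Trincr1-ko ESCs it was 1.08 and 0.531 FPKM in 2i + LIF and 12.1 and 14.4 FPKM in PD + LIF, a log2 difference of 2.99 (limma adjusted p = 1.4e-05). Relative to the mean, the samples of Trincr1-ko in 2i + LIF were farther apart than those of any other group.

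Sox1 was 0.733 and 0.819 FPKM in wild-type ESCs in 2i + LIF and 4.62 and 5.12 FPKM in PD + LIF, a log2 difference of 1.72 (SE 0.12, limma adjusted p = 4.62e-05). In Trincr1-ko ESCs it started from 0.567 and 0.422 FPKM, below both wild-type samples, and reached 9.97 and 8.56 FPKM, above both. This rise had a log2 difference of 2.78 (limma adjusted p = 5.99e-06), or 18.7-fold by the means against 6.27-fold in wild-type ESCs.

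Irx3 was near 0 in 2i + LIF, with 0.0346 and 0.104 FPKM in wild-type and 0.0687 and 0 FPKM in Trincr1-ko ESCs. In PD + LIF it had 4.93 and 4.46 FPKM in wild-type and 11.4 and 12.1 FPKM in Trincr1-ko ESCs. The values in 2i + LIF rest on an estimated 4 fragments in wild-type and 2 in Trincr1-ko ESCs, against 258 and 627 in PD + LIF. With 95% intervals for counting error only, the ratio between the media was 60.5 (23.3 to 224) in wild-type and 282 (77.6 to 2330) in Trincr1-ko ESCs. The log2 differences were 2.41 (SE 0.12, limma adjusted p = 1.07e-05) and 3.62 (limma adjusted p = 2.22e-06), and the pseudocount of 1 FPKM keeps them below the ratios. Irx3 passed the filter on the mean level only through the PD + LIF groups, so these p-values are not independent of that filter.

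Sox11 was 1.86 and 1.64 FPKM in wild-type and 1.98 and 2.03 FPKM in Trincr1-ko ESCs in 2i + LIF. It had 8.59 and 8.50 FPKM in wild-type and 13.4 and 12.8 FPKM in Trincr1-ko ESCs in PD + LIF. The media did not overlap in either genotype, with log2 differences of 1.79 (SE 0.09, limma adjusted p = 1.43e-05) and 2.23 (limma adjusted p = 4.9e-06).

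Nes was the highest of the 9 genes in every group. It had 6.26 and 5.33 FPKM in wild-type and 6.39 and 7.16 FPKM in Trincr1-ko ESCs in 2i + LIF, and 13.8 and 14.7 FPKM against 15.4 and 15.03 FPKM in PD + LIF. Its rise between the media was 2.46-fold in wild-type ESCs (log2 difference 1.17, SE 0.10, limma adjusted p = 8.04e-05) and 2.25-fold in Trincr1-ko ESCs (log2 difference 1.06, limma adjusted p = 0.00012), the smallest rise among the 5 genes that passed.

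En2 went the other way. It was 2.73 and 2.67 FPKM in wild-type and 2.81 and 2.76 FPKM in Trincr1-ko ESCs in 2i + LIF, and 1.28 and 1.51 FPKM against 1.07 and 1.10 FPKM in PD + LIF. It fell by 0.63 on the log2 scale in wild-type ESCs (SE 0.11, limma adjusted p = 0.00251) and by 0.86 in Trincr1-ko ESCs (limma adjusted p = 0.000626), so PD + LIF held 0.516 and 0.390 of the level in 2i + LIF.

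Hes5 was close to the limit of detection. It was listed at 0 in both wild-type samples in 2i + LIF, at 0.626 and 0 FPKM in Trincr1-ko samples in 2i + LIF, at 0.202 and 0.242 FPKM in wild-type and at 0.403 and 0.566 FPKM in Trincr1-ko ESCs in PD + LIF. Its highest value corresponds to an estimated 8.06 fragments. The log2 differences between the media were 0.29 in wild-type (SE 0.22, limma adjusted p = 0.303) and 0.22 in Trincr1-ko ESCs (limma adjusted p = 0.444). A change of Hes5 was not detectable at this depth, and without replicate 1 of Trincr1-ko in 2i + LIF, the library with the highest value, the second difference became 0.57 (limma adjusted p = 0.0240).

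For En1 and Ptn only values are given between the media, since these share the PD + LIF samples that brought both genes forward. En1 was 0.171 and 0.137 FPKM in wild-type ESCs in 2i + LIF and 1.36 and 2.08 FPKM in PD + LIF, with a log2 difference of 1.22 (SE 0.18). Ptn was 0 and 0.183 FPKM against 1.97 and 2.03 FPKM, with a log2 difference of 1.46 (SE 0.17). Both genes were higher in PD + LIF also in ESCs that carry Trincr1. The media did not overlap for any of the 9 genes in wild-type ESCs, beside 76.4% of all genes tested. By estimated fragments the ratio was 10.8 for En1 (95% interval for counting error 6.28 to 20.3, 162 against 14 fragments) and 22.3 for Ptn (9.30 to 70.0, 119 against 5 fragments).

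In wild-type ESCs in PD + LIF the levels ran from Nes (mean 14.3 FPKM) over Pax6 (9.85 FPKM), Sox11 (8.54 FPKM), Sox1 (4.87 FPKM) and Irx3 (4.70 FPKM) to Ptn (2.00 FPKM), En1 (1.72 FPKM), En2 (1.40 FPKM) and Hes5 (0.222 FPKM). Sox1 and Irx3 overlapped, as did Ptn with En1 and En1 with En2. In Trincr1-ko ESCs En1 stood at 10.9 FPKM and overlapped Irx3 at 11.7 FPKM, while Ptn at 9.16 FPKM overlapped Sox1 at 9.26 FPKM. En1 was thus near En2 in wild-type ESCs and near Irx3 in Trincr1-ko ESCs.

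In PD + LIF, Trincr1-ko ESCs held more RNA of 8 of the 9 genes than wild-type ESCs, with no overlap between the samples, and less of En2. Since the group was put together with this contrast known, the count is a description, and among all genes tested 57.7% showed no overlap, 30.2% with higher levels in Trincr1-ko ESCs. En1 had the largest log2 difference, 2.14 (SE 0.18), from the wild-type values above to 11.9 and 9.97 FPKM, or 6.36-fold by the means. Ptn followed with 1.75 (SE 0.17), reaching 10.3 and 8.06 FPKM, or 4.58-fold. With the other pseudocounts tried, 0.1 and 0.5 FPKM, En1 differed by 2.62 and 2.38 and Ptn by 2.13 and 1.94.

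The other members differed less. The log2 difference was 1.16 for Irx3 (SE 0.12), 0.81 for Sox1 (SE 0.12), 0.56 for Sox11 (SE 0.09) and 0.39 for Pax6 (SE 0.17). Hes5 at 0.28 (SE 0.22) and Nes at 0.09 (SE 0.10) differed by about 1 SE, and En2 was lower by -0.20 (SE 0.11). For Sox1, Pax6, Nes, Sox11 and Irx3 the difference between genotypes in PD + LIF was smaller than the rise between media in wild-type ESCs, while it was 2.14 against 1.22 for En1 and 1.75 against 1.46 for Ptn. Which of these values was larger depended on the pseudocount. With 0.1 FPKM it was 2.62 against 2.82 for En1 and 2.13 against 3.64 for Ptn, and the ratios of means were 6.36 against 11.2 and 4.58 against 21.9. The contrasts share the wild-type PD + LIF samples, and their difference was not tested.

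**Figure D2:**
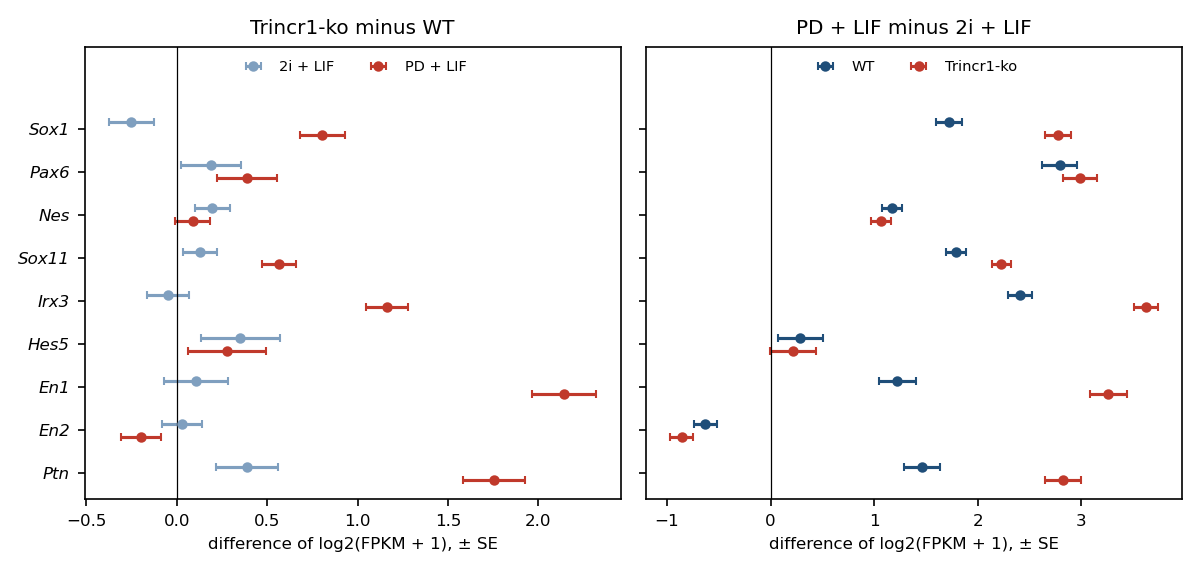
Differences of log2(FPKM + 1) with standard errors (x axis) for the 9 genes (y axis), between genotypes in each medium on the left and between media in each genotype on the right. In 2i + LIF the differences between genotypes lie between -0.25 and 0.39, and in PD + LIF En1 and Ptn reach 2.14 and 1.75.

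In 2i + LIF, none of the 9 genes passed the test between genotypes. The count was 0 of 9 by limma, also at an unadjusted p under 0.05, beside 1.21% of all genes tested by adjusted p and 14.6% unadjusted. En1 had 0.374 and 0.121 FPKM in Trincr1-ko ESCs, on either side of the wild-type values, and a log2 difference of 0.11 (SE 0.18, limma adjusted p = 0.865). Ptn had 0.272 and 0.594 FPKM, both above the wild-type samples, and a log2 difference of 0.39 (SE 0.17, limma adjusted p = 0.361). By estimated fragments, 22 against 5, the ratio of Ptn was 4.72 (1.75 to 16.0 for counting error only), an interval above 1 although the test over samples did not pass. Sox1 was lower in both Trincr1-ko samples, by -0.25 (SE 0.12, limma adjusted p = 0.426). The samples of the 2 genotypes did not overlap for En2, Ptn, Sox1, Nes and Sox11, or 5 of 9 genes, against 44.4% of all genes.

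In Trincr1-ko ESCs, 5 of the 7 tested members were higher and En2 was lower in PD + LIF than in 2i + LIF, as described above. This stands beside 50.0% of all genes tested (29.6% higher and 20.3% lower). The media did not overlap for 8 of the 9 genes, all but Hes5, beside 74.5% of all genes. En1 rose from those low values to 10.9 ± 1.38 FPKM (SD, n = 2), a log2 difference of 3.26 (SE 0.18), and Ptn to 9.16 ± 1.56 FPKM (SD, n = 2), a log2 difference of 2.83 (SE 0.17). By estimated fragments these were ratios of 41.3 (27.1 to 66.2) and 21.5 (14.0 to 34.6). The ratio of Ptn between media was thus 22.3 in wild-type and 21.5 in Trincr1-ko ESCs, while that of En1 was 10.8 and 41.3.

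The difference of the genotype effect between the media contains the genotype contrast in PD + LIF and is likewise given without a test. It was 2.04 for En1, 1.36 for Ptn, 1.21 for Irx3, 1.06 for Sox1 and 0.44 for Sox11 on the log2 scale. It was 0.20 for Pax6, -0.07 for Hes5, -0.11 for Nes and -0.23 for En2. For Ptn it depended on the scale, since with a pseudocount of 0.1 FPKM it was 0.54 (SE 0.73), as wild-type ESCs in 2i + LIF were near 0.

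To set these genes beside their pathways, 7 lists with 127 genes were counted in the same fit, of which 93 genes were tested, 33 were at or under 0.2 FPKM and Tubb3 was not analysed here. The lists were written with earlier results of these data known, so their counts and shares are a description and no separate support. In PD + LIF, 23 of the 93 genes were higher and 10 lower in Trincr1-ko ESCs (limma, adjusted p under 0.05), with a median log2 difference of 0.12, beside 12.1% of all genes (6.29% higher and 5.77% lower) and a median of 0.01. Leaving out 1 library lowered these 33 calls to 11 without replicate 1 of wild type or of Trincr1-ko in PD + LIF, to 17 without replicate 2 of wild type and to 19 without replicate 2 of Trincr1-ko. In 2i + LIF, 1 of the 93 genes passed, Snai1. Between the media in wild-type ESCs, 60 of the 93 genes rose and 12 fell, with a median log2 difference of 0.61. Of all genes tested, 30.9% rose and 21.3% fell, with a median of 0.08. These shares are the background of the counts between media given for each list below.

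Of the midbrain and hindbrain list, 12 of 19 genes were tested, and in PD + LIF Pax2, Wnt1 and Lmx1b were higher and Cnpy1 was lower in Trincr1-ko ESCs, with a list median of 0.27. Pax2, a paired box factor of the midbrain-hindbrain boundary, was 0.309 and 0.296 FPKM in wild-type and 2.47 and 2.97 FPKM in Trincr1-ko ESCs, 9.01-fold by the means (log2 difference 1.51, SE 0.12, limma adjusted p = 0.00203). Wnt1, the boundary's Wnt ligand, was 0.197 and 0.354 FPKM against 1.30 and 1.24 FPKM (log2 difference 0.83, SE 0.12, limma adjusted p = 0.00802). In 2i + LIF, Wnt1 was listed at 0 in all 4 libraries and Pax2 in 3 of 4. Wnt1 did not pass when only the 4 PD + LIF samples were fitted. Both genes passed the filter on the mean level only through Trincr1-ko ESCs in PD + LIF. Their p-values are therefore not independent of that filter.

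Lmx1b, a LIM homeobox factor of the same region, was already high in wild-type ESCs in PD + LIF. It had 13.1 and 12.05 FPKM there against at most 0.0680 FPKM in 2i + LIF (log2 difference 3.69, limma adjusted p = 3.89e-06). Lmx1b passed the filter on the mean level only through the PD + LIF groups, so this p-value is not independent of that filter. In Trincr1-ko ESCs it had 18.1 and 18.6 FPKM in PD + LIF (log2 difference from wild type 0.51, SE 0.12, limma adjusted p = 0.0335), and this call was lost when any of the 4 PD + LIF or the 2 wild-type 2i + LIF libraries was left out, with an adjusted p of up to 0.143. Cnpy1, an FGF signaling regulator named canopy, whose gene lies next to En2, was 32.6 and 33.6 FPKM in wild-type ESCs in 2i + LIF, 10.1 and 8.36 FPKM in PD + LIF, and 3.50 and 4.82 FPKM in Trincr1-ko ESCs in PD + LIF. It therefore fell between media as En2 did, and the genotypes differed by -0.99 in PD + LIF (SE 0.14, limma adjusted p = 0.00811, or 0.0583 without replicate 1 of wild type).

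**Figure D3:**
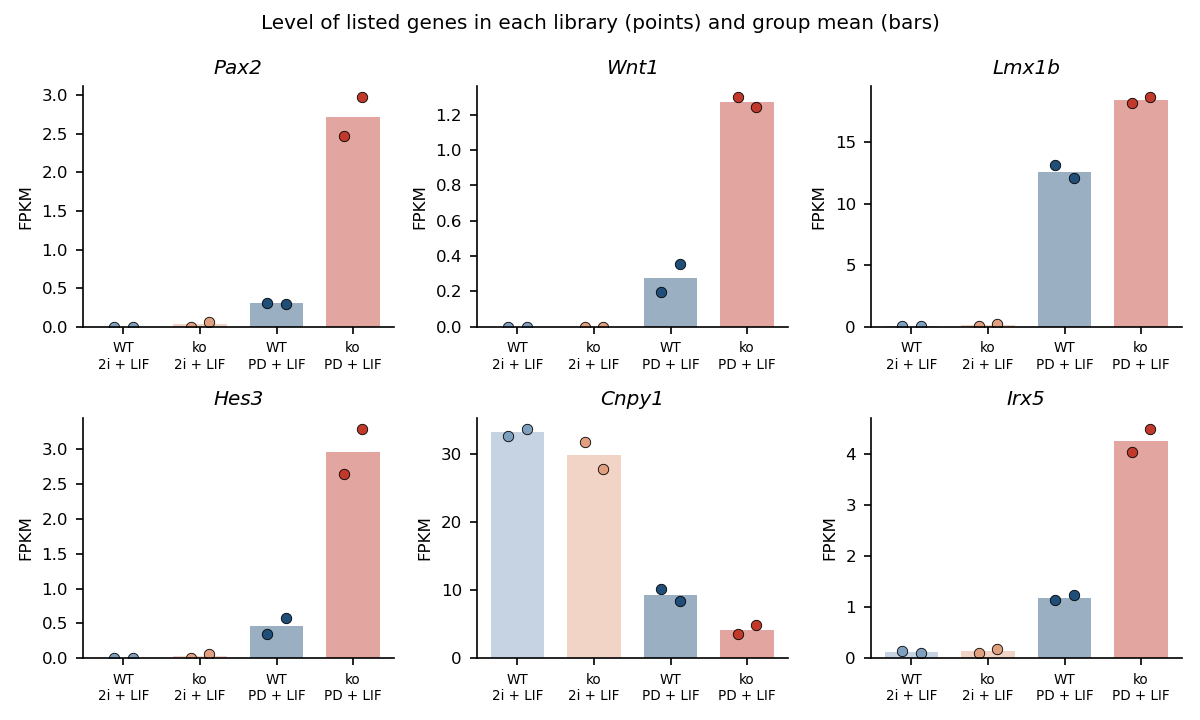
FPKM of Pax2, Wnt1, Lmx1b, Hes3, Cnpy1 and Irx5 (y axis, a separate scale in each panel, from 0) in the 4 groups, with each of the 2 samples as a point and the group mean as a bar. Pax2, Wnt1, Hes3 and Irx5 are highest in Trincr1-ko ESCs in PD + LIF, Lmx1b is high in both genotypes in PD + LIF, and Cnpy1 is highest in 2i + LIF.

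Among the paralogs of the 9 genes, 13 of 18 were tested, with 5 higher and 2 lower in Trincr1-ko ESCs in PD + LIF and a median of 0.29. Hes3, a Hes repressor expressed at the midbrain-hindbrain boundary, was 0.353 and 0.580 FPKM in wild-type and 2.64 and 3.29 FPKM in Trincr1-ko ESCs (log2 difference 1.43, SE 0.14, limma adjusted p = 0.00279). Irx5, an Iroquois neighbor of Irx3, was 1.14 and 1.24 FPKM against 4.04 and 4.50 FPKM (log2 difference 1.27, SE 0.12, limma adjusted p = 0.00267). Both calls held whichever library was left out. Those of Sox3 (0.78, limma adjusted p = 0.0291) and Irx1 (0.75, limma adjusted p = 0.0363) were lost in 7 of the 8 fits that left out 1 library. Hes3 and Irx1 passed the filter on the mean level only through Trincr1-ko ESCs in PD + LIF. Their p-values are not independent of that filter, which stayed the same in the fits that left out 1 library. Hes1, another repressor downstream of Notch, had 15.6 to 20.5 FPKM over the 8 libraries. It did not pass in any contrast (limma adjusted p = 0.373 or more).

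Of the Notch list, 17 of 21 genes were tested. In wild-type ESCs 12 rose and 0 fell between the media, with a median log2 difference of 1.32, and the largest changes were those of the glycosyltransferase Lfng (2.72), the ligand Dll1 (1.99), the receptor Notch3 (1.99) and the ligand Jag2 (1.98), while Hes5 stayed at a few fragments. Between genotypes in PD + LIF, Hes3 and the coactivator Maml1 (0.42) were higher, Hes6 (-0.57) and Dll1 (-0.63) were lower, and the median was -0.01. Dll1 passed with a limma adjusted p of 0.0479 and was lost in each of the 8 fits that left out 1 library. Maml1 was lost without any of the 4 PD + LIF libraries (adjusted p up to 0.0965), and Hes6 without replicate 2 of wild type or either Trincr1-ko replicate in PD + LIF (up to 0.0739), and both calls were lost in the fit of the 4 samples alone.

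Of the pleiotrophin list, 11 of 15 genes were tested, and in PD + LIF 2 were higher and 2 lower in Trincr1-ko ESCs, with a median of -0.02. Sdc3, a syndecan that binds pleiotrophin, was 1.82 and 2.35 FPKM in wild-type and 4.87 and 3.59 FPKM in Trincr1-ko ESCs (log2 difference 0.76, SE 0.19, limma adjusted p = 0.0437), a call lost in 6 of 8 fits that left out 1 library. The syndecan Sdc4 was 93.4 and 84.7 FPKM against 39.4 and 49.9 FPKM (log2 difference -0.99, SE 0.12, limma adjusted p = 0.00533, or 0.0506 without replicate 1 of wild type in PD + LIF). Mdk, the paralog of Ptn, had 193 and 224 FPKM against 277 and 240 FPKM and did not pass (log2 difference 0.31, limma adjusted p = 0.0662). The receptors Ptprz1 and Alk were at or under 0.246 FPKM and 0.0183 FPKM in every library and were not tested. Between the media in wild-type ESCs, 8 of the 11 genes rose and 2 fell, among them the receptor Ptprs with a log2 difference of 1.79 (limma adjusted p = 5.59e-06).

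In the neural progenitor list, 25 of 31 genes were tested. Between the media 16 rose and 2 fell in wild-type ESCs, with a median log2 difference of 0.73. Otx2, the forebrain and midbrain factor, rose by 3.61, and Nkx6-2 fell by 3.61. Otx2 and Pou3f1 of this list were also counted above among the markers of formative and primed epiblast. Between genotypes in PD + LIF, 5 were higher, led by Cdh2, which encodes N-cadherin (0.96, limma adjusted p = 0.00809), Sox3 and Vim, which encodes vimentin (0.75, limma adjusted p = 0.0122). Another 3 were lower, led by Rax (-0.66, limma adjusted p = 0.0373) and with Sox2 among them (limma adjusted p = 0.0286), and the median was 0.13. Cdh2 was not called without replicate 1 of either genotype in PD + LIF, Vim without replicate 1 of Trincr1-ko, and Rax in 7 of the 8 fits that left out 1 library. Rax passed the filter on the mean level only through wild-type ESCs in PD + LIF, so its p-value is not independent of that filter. Fabp7, a gene of radial glia, was listed at 0 in 7 of the 8 libraries.

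In the neuronal list, 13 of 18 genes were tested, with 3 higher and 2 lower between genotypes in PD + LIF and a median of 0.07. Gap43, a growth cone gene, was 17.9 and 21.7 FPKM in wild-type and 42.0 and 38.2 FPKM in Trincr1-ko ESCs (log2 difference 0.99, SE 0.11, limma adjusted p = 0.00381). Stmn3 was also higher, with means of 3.09 and 5.91 FPKM in the same order (limma adjusted p = 0.0409). The 2 lower genes were Elavl4, with 1.76 and 0.596 FPKM (limma adjusted p = 0.0327), and Neurog3, with 0.671 and 0.181 FPKM (limma adjusted p = 0.0291). The calls of Stmn3, Elavl4 and Neurog3 were lost in the fit of the 4 samples alone. Neurog3 passed the filter on the mean level only through wild-type ESCs in PD + LIF, so its p-value is not independent of that filter. Between the media in wild-type ESCs 8 rose, Gap43 among them, and 3 fell, among them the neurofilament genes Nefm (-2.75) and Nefl (-2.36).

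In the neural crest list, 9 of 13 genes were tested, with 5 higher and 0 lower between genotypes in PD + LIF and a median of 0.66. Snai1, a repressor of epithelial genes, led it at 1.81 (limma adjusted p = 0.00288) and also passed in 2i + LIF at 2.00 (limma adjusted p = 0.00514), a call lost without either wild-type replicate or replicate 2 of Trincr1-ko in 2i + LIF and in the fit of the 4 samples alone. Msx1, a homeobox gene, followed with 1.27 (limma adjusted p = 0.00824), a call lost without replicate 1 of either genotype in PD + LIF. Between the media in wild-type ESCs 4 genes of the list rose and 2 fell.

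**Figure D4:**
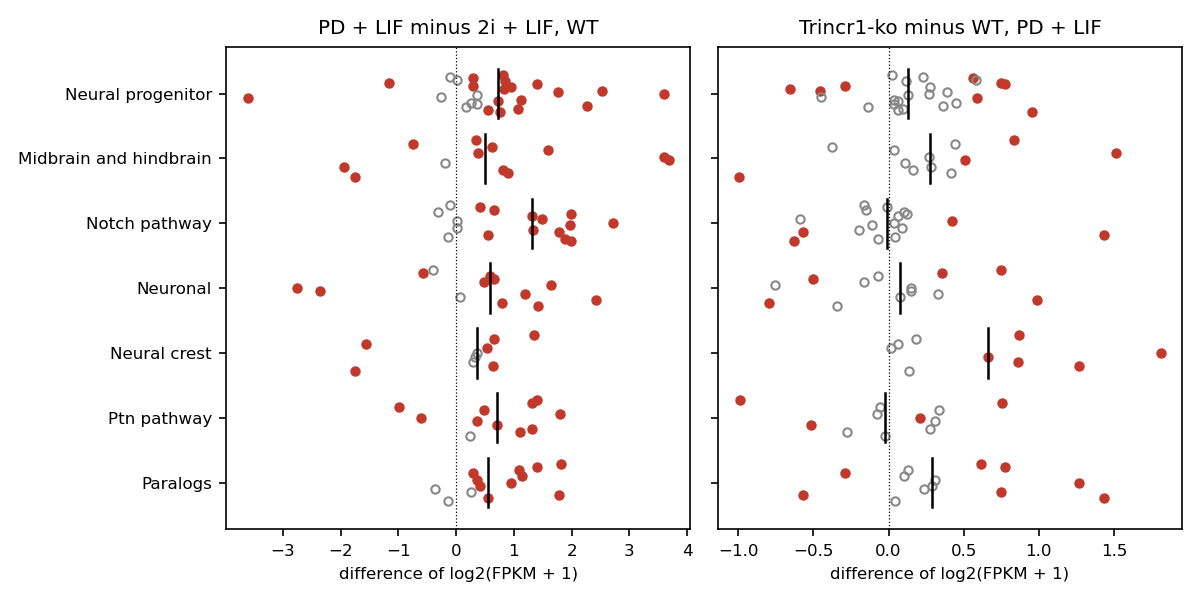
Differences of log2(FPKM + 1) (x axis) of the tested genes of 7 lists (y axis), between media in wild-type ESCs on the left and between genotypes in PD + LIF on the right. Each point is a gene, filled where limma called it at an adjusted p under 0.05, and the vertical bar is the list median, which runs from 0.37 to 1.32 on the left and from -0.02 to 0.66 on the right.

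The genes whose pattern was most like each member were ranked by Pearson correlation of log2(FPKM + 1) over the 8 samples, among 4509 genes that spanned at least 1 on that scale. The 8 points share 4 group means and 4 pairs of samples, so high values are common. For En1 these were Wnt1 (r = 0.996), Pax3 (0.995), Wnt6 (0.995), Igf2os (0.993) and Hand1 (0.993), and 167 genes exceeded 0.95. For Ptn they were Rab13 (0.995), Basp1 (0.992), Igf2os (0.992), Has2 (0.991) and Zswim8 (0.991), with 244 genes above 0.95. For Sox1, Pax6, Nes, Sox11 and Irx3, which differ mainly between media, 839 to 987 genes exceeded 0.95. The closest were Shisa2 to Sox1 (0.998), Hesx1 to Pax6 (0.999), Foxj2 to Nes (0.997), Igf2 to Sox11 (0.999), Efnb2 to Irx3 (0.999) and Dlgap3 to En2 (0.999). For Hes5 the closest was 1110051M20Rik (0.970), and 2 genes exceeded 0.95. Among the members, En1 and Ptn had r = 0.983, Sox1 and Irx3 0.995, and En1 and En2 -0.902.

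In a second experiment, RNA was pulled down with FLAG-tagged TRIM71, an RNA-binding protein, from ESCs in 2i + LIF, and the authors deposited 1 value per transcript for the immunoprecipitate (IP) and the input, so no error can be given. The table analysed here listed 6 of the 9 genes, all with low input. Nes was at 4 FPKM before the pulldown and at 3.7 FPKM after it, or at 2.1 times the input after the authors' scaling. Of 1402 transcripts with an input from 3 to 5 FPKM, 8.99% had a ratio as high or higher and 70.1% were at 0 in the IP. Pax6 (0.9 FPKM), En2 and Irx3 (0.6 FPKM each), En1 (0.2 FPKM) and Hes5 (0.1 FPKM) were at 0 in the IP, as were 93.4% of the 2863 transcripts with an input under 1 FPKM. These 5 genes were thus not detectable in the IP at this level, and Ptn, Sox1 and Sox11 were not analysed here.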

How the data were processed

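Poly(A) RNA-seq of 8 ESC samples in 4 groups and 1 table of FLAG-TRIM71 RNA pulldown were used. The authors aligned reads with STAR 2.5.0, quantified genes with Cufflinks 2.2.1 and deposited normalized FPKM values per gene and sample. Their methods and labels name mm9, while the deposited gene coordinates are those of GRCm38. For the pulldown, the authors deposited FPKM values rounded to 1 decimal and a second pair scaled to a common average, which is a signal without known depth. Their own column of enrichment was not used.

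Of 41260 entries, 1 was kept for each of 39 repeated identifiers. The 15430 genes with a mean above 0.2 FPKM were tested with limma 3.58.1 in R 4.3.3 on log2(FPKM + 1), with 4 groups in 1 fit, 4 residual degrees of freedom, a variance trend and Benjamini-Hochberg adjustment at 0.05. All differences are on this scale, which understates the change of low genes, and each SE is that of the fit. Fragments were estimated from FPKM, the estimated depth, an assumed fragment length of 220 bases and the longest GENCODE transcript, so they are approximate, and intervals on them cover counting error only. The depth itself came from loci of 500 to 1500 bases. Python 3.11.15 with pandas 2.3.3 and numpy 2.4.6 was used for tables, and matplotlib 3.10.9 for plots.

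The 9 genes and the lists were chosen with earlier results of these data known. Named beside them were up to 4 called genes per list and contrast by size of difference, paralogs, ligands and receptors, and the 5 genes most correlated with each member. Alternatives covered the pseudocount, the filter, quantile normalization, the variance trend, the samples fitted, the replicate block and each library left out. No count test was run, since FPKM values are not counts. Pulldown samples with the empty construct were not used here.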

Additional observations from a re-analysis of the deposited data

Results flagged for a closer look

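The sign of the difference between genotypes was opposite in the 2 media for En2 and Sox1, with no overlap between the samples. Of all genes, 44.4% showed no overlap in 2i + LIF and 57.7% in PD + LIF, each in either direction. The share of all genes with no overlap and opposite signs in both media was not counted, so these 2 genes have no background. En2 was higher in both Trincr1-ko samples than in both wild-type samples in 2i + LIF and lower in PD + LIF, with a difference of the log2 effects of -0.23, but the value in 2i + LIF was only 0.03 (SE 0.11, limma adjusted p = 0.954). Sox1 was lower in both Trincr1-ko samples in 2i + LIF and higher in PD + LIF, with a difference of 1.06 and a value in 2i + LIF of -0.25 (SE 0.12, limma adjusted p = 0.426). Neither difference between the media was tested, since the group was put together with the genotype contrast in PD + LIF known.

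Of the listed genes, 5 passed the limma test of the genotype effect between media, all with a higher effect in PD + LIF, beside 1.81% of all genes tested. The difference was 1.39 for Hes3 (limma adjusted p = 0.0280), 1.25 for Irx5 (0.0272), 1.47 for Pax2 (0.0244), 1.14 for Sox4 (0.0277) and 0.36 for Stmn2 (0.0368). Hes3 and Pax2 passed the filter on the mean level only through Trincr1-ko ESCs in PD + LIF. Sox4 was 2.40 and 2.02 FPKM in wild-type and 1.22 and 1.23 FPKM in Trincr1-ko ESCs in 2i + LIF, and 10.02 and 10.4 FPKM against 17.6 and 14.9 FPKM in PD + LIF. Stmn2, a neuronal microtubule regulator, was 111 to 114 FPKM in all 4 samples in 2i + LIF, 74.6 and 76.5 FPKM in wild-type and 98.5 and 95.2 FPKM in Trincr1-ko ESCs in PD + LIF. None of the 5 passed in any of the 8 fits that left out 1 library, or with the replicate block.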

How the results depend on the processing

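Each group holds 2 samples, and low levels in 2i + LIF rest on few fragments. Between genotypes in 2i + LIF, 0 members passed under each alternative run, and between media 6 passed, or 7 in Trincr1-ko ESCs without replicate 1 of Trincr1-ko in 2i + LIF. Of the listed genes, 1 passed between genotypes in 2i + LIF, 2 with a pseudocount of 0.1 FPKM, 0 in the fit of 4 samples, and 0 to 1 without 1 library. In PD + LIF, 33 became 20 with a pseudocount of 0.1 FPKM, 8 in the fit of 4 samples, and 11 to 27 without 1 library. For the effect between media, 5 became 2 with a pseudocount of 0.1 FPKM, 0 with the replicate block, and 0 whichever library was left out. Over all genes, the fit of 4 samples called 0 genes in 2i + LIF, and 140 higher and 176 lower in PD + LIF. In PD + LIF, En1 ranged from 1.95 to 2.34 and Ptn from 1.60 to 1.91 without 1 library, against 2.62 and 2.38 for En1 and 2.13 and 1.94 for Ptn with pseudocounts of 0.1 and 0.5 FPKM.

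Signs turned only without 1 library and near 0. In 2i + LIF, En1 ranged from -0.041 to 0.25, Pax6 from -0.031 to 0.41 and Irx3 from -0.10 to 0.00010. Hes5 between media in Trincr1-ko ESCs ranged from -0.13 to 0.57. In the effect between media, Pax6 ranged from -0.021 to 0.42 and Hes5 from -0.42 to 0.28, with 0.0075 without replicate 1 of Trincr1-ko in PD + LIF. Of 674 values of single genes under alternatives, 644 were counted as the same, 22 moved, 1 gained a call and 7 turned sign. For tested values the same meant an unchanged direction and call, and their size was not compared. For untested values it meant an unchanged direction and a size within the SE. Ptn between genotypes in 2i + LIF was counted as the same at 1.60 with a pseudocount of 0.1 FPKM, against 0.39 in the main fit.

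Replicate numbers are shared by the groups, but the deviations of same-numbered samples correlated by -0.0539 to 0.00634, so the numbers were not taken as pairs. With the replicate block, 35 genes were higher and 76 lower between genotypes in 2i + LIF, 660 and 642 in PD + LIF, and 17 and 22 in the effect between media. It left 22 calls of listed genes in PD + LIF.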

Other observations

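Msi1, an RNA-binding protein gene of neural progenitors outside the 9 genes, had group means of 18.0 (WT) and 17.4 FPKM (Trincr1-ko) in 2i + LIF and 30.5 and 31.9 FPKM in PD + LIF. Olig2, a factor of ventral neural progenitors, was 7.03 and 7.27 FPKM in the WT samples of 2i + LIF against 4.27 and 5.003 FPKM for Trincr1-ko, and 5.06 and 6.58 FPKM against 3.79 and 4.13 FPKM in PD + LIF. The Trincr1-ko samples were thus lower than the WT samples in both media, but neither difference passed (log2 difference -0.53, limma adjusted p = 0.130, and -0.45, limma adjusted p = 0.0693).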
